A study of Mus musculus with 2 samples.

Results

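Granule-protease progenitors were examined in bone marrow macrophage cultures, as the cells in which the summed level of Mpo, Elane, Prtn3 and Ctsg was high while genes of later neutrophil stages were low. A cell was counted when it held at least 500 genes and 1000 unique molecular identifiers (UMIs, each standing for 1 captured RNA molecule), and at most 10% of its UMIs came from mitochondrial genes. Among these kept cells, a progenitor had at least 40 UMIs of the 4 protease genes together per 10000, under 50 of Camp, Ngp and Ltf together, and under 10 of Retnlg. The rule gave 2817 of 23101 kept cells, 1253 of 12123 in the treated library and 1564 of 10978 in the vehicle library. The levels of those 8 genes therefore chose the cells and are given as a description.

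Marrow of wild-type 129Sv mice, with age, sex and number not given in the sources used here, was cultured with 10% serum and 50 ng/ml M-CSF, the growth factor through which marrow cells become macrophages. From day 7 the cells received for 18 h either 1 µg/ml of a truncated form of Tamm-Horsfall protein (THP, or uromodulin, a kidney-made protein) that cannot polymerize, or its vehicle, 5% dextrose. There was 1 droplet library for each group, so no difference below has a replicate check and no test between the groups was possible. Treatment cannot be told apart from culture dish or library preparation.

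Granulocyte-monocyte progenitors in the marrow divide and give rise to neutrophils and monocytes. In their promyelocyte stage they pack primary (azurophil) granules with myeloperoxidase, encoded by Mpo, and with the serine proteases neutrophil elastase (Elane), proteinase 3 (Prtn3) and cathepsin G (Ctsg). Transcription of these genes ends before the secondary granule genes Camp, Ngp and Ltf come on, so the protease messages mark a short window of maturation.

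The start regions of the 4 protease genes are shown first because they share a motif and chose the cells. Sequences are those of the RefSeq promoter table on GRCm38.p6, read 5′ to 3′ in the direction of the gene and ending before any annotated transcript start downstream. Capitals mark GAGGAAG, the purine-rich core bound by ETS factors such as PU.1, searched on both strands in the 250 bases before each RefSeq start. The Mpo stretch lies at chr11:87793534-87793580 (+ strand), the Elane stretch at chr10:79886197-79886246 (+) and the Ctsg stretch at chr14:56102754-56102820 (−), all outside annotated genes. The Prtn3 stretch at chr10:79879542-79879608 (+) lies in an intron of a longer annotated Prtn3 transcript.
Mpo: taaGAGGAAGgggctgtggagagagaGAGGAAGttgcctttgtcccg
Elane: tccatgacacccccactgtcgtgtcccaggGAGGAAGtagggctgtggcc
Prtn3: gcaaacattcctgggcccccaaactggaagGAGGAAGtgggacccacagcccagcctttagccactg
Ctsg: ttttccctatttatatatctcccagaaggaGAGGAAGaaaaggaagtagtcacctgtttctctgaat
The motif occurred in the 250-base window of all 4 genes, with 2 copies in Mpo and 1 in each of the others. It was not found in the window of Ms4a3. It was present in 10.6% of all 32851 windows, and in 13.2% of the 6306 expressed genes matched by symbol.

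A pair of genes induced by NF-kB, a transcription factor of inflammatory signalling, is shown beside them because the largest differences between the libraries lay among its targets. Capitals mark GGNNTTTCC, a short form of the kB site, on either strand (the second mark in Nfkbia is on the opposite strand). The Cxcl2 stretch lies at chr5:90903773-90903860 (+) and the Nfkbia stretch at chr12:55492648-55492855 (−), both outside annotated genes.
Cxcl2: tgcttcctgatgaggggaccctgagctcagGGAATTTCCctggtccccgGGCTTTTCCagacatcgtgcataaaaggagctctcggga
Nfkbia: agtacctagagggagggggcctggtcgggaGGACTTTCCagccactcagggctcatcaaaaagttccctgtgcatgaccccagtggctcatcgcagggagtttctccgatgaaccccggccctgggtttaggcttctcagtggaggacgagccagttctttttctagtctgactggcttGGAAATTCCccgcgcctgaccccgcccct
Nfkb2 and Tnfaip3 were searched as well and are not printed, and each had windows with and without a match. This short form occurred in 4.93% of all windows and in 6.22% of the matched expressed genes. Of the genes at least 2-fold higher with THP, 69 of 87 matched a window and 18 of those (26.1%) held it. Of the genes at least 2-fold lower, 104 matched and 2 (1.92%) held it. The motif GAGGAAG was found in 16 of the 69 genes higher with THP (23.2%) and in 15.4% of those lower, against 13.2% of all matched expressed genes. TTGCNNAA, a short form of the C/EBP site, was found in 11.6% and 8.65%, against 8.91%, and the MYB core TAACNG in 17.4% and 19.2%, against 19.7%. A match gives only the letters of the window, and no binding was measured.

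In the treated library 10.3% of kept cells were progenitors (exact binomial 95% interval 9.80 to 10.9), and in the vehicle library 14.2% (13.6 to 14.9). The difference, THP minus vehicle, was -3.91 percentage points (interval of the difference -4.76 to -3.06), and all intervals here cover counting error only. Shares of 1 culture add to a fixed total. Immature neutrophils, defined by Camp, Ngp and Ltf, made up 10.1% of treated and 13.9% of vehicle cells, and macrophages, defined by the complement genes C1qa, C1qb and C1qc, 9.40% and 7.41%. With both neutrophil groups taken out of the denominator, the progenitor share was 12.3% with THP and 18.5% with vehicle. The barcodes that failed the quality limits also held cells passing the gene limits, 10.4% of 1070 such barcodes in the THP library and 17.7% of 606 in the vehicle library.

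Summed over the progenitors, 24602753 UMIs were available with THP and 35521803 with vehicle, which is 10.9% and 17.1% of the UMIs of all kept cells. A progenitor held a median of 17684 UMIs and 3915 genes in the THP library, and 21166.5 UMIs and 4660 genes in the vehicle library. The median mitochondrial share was 3.34% and 3.86%. The libraries had 42 cell barcodes in common, of which 1 was a progenitor barcode in both. Doublets were not removed. Leaving out the 5% of cells with most UMIs in each library left the share at 10.6% and 14.5%.

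The summed protease level ran continuously across the limit. It had a median of 202 per 10000 UMIs with THP (quartiles 103 and 317) and 226 with vehicle (118 and 333), and reached 672 and 644. Just inside the limit, between 40 and 50, lay 74 treated and 60 vehicle cells, and just outside, between 30 and 40, lay 84 and 91. A further 223 treated and 288 vehicle cells reached a sum of 40 but were left out by the limits on Camp, Ngp, Ltf or Retnlg.

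The label of a myeloid progenitor was checked on genes outside the rule. Ms4a3, a membrane protein gene of granulocyte-monocyte progenitors, stood at 1058 counts per 1000000 UMIs (CPM; exact Poisson 95% interval 1045 to 1071) with THP and 1017 (1006 to 1027) with vehicle. Mpo chose the cells, so its levels are a description: 4998 and 5677 CPM in the progenitors, 509 CPM with THP and 562 with vehicle in immature neutrophils, and 24.9 and 50.3 CPM in macrophages, a cell type not known to make it. Kit, the stem cell factor receptor, was at 48.1 and 86.7 CPM in progenitors, at 13.8 and 29.97 CPM in immature neutrophils and at or below 0.502 CPM in monocytes and macrophages. In both libraries Kit was thus higher in progenitors than in these 3 groups. Cd34, a further progenitor gene, was at 27.3 CPM with THP and 39.0 CPM with vehicle in progenitors. In monocytes it was at 15.6 and 41.3 CPM, so with vehicle it was not highest in progenitors.

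**Figure D1:**
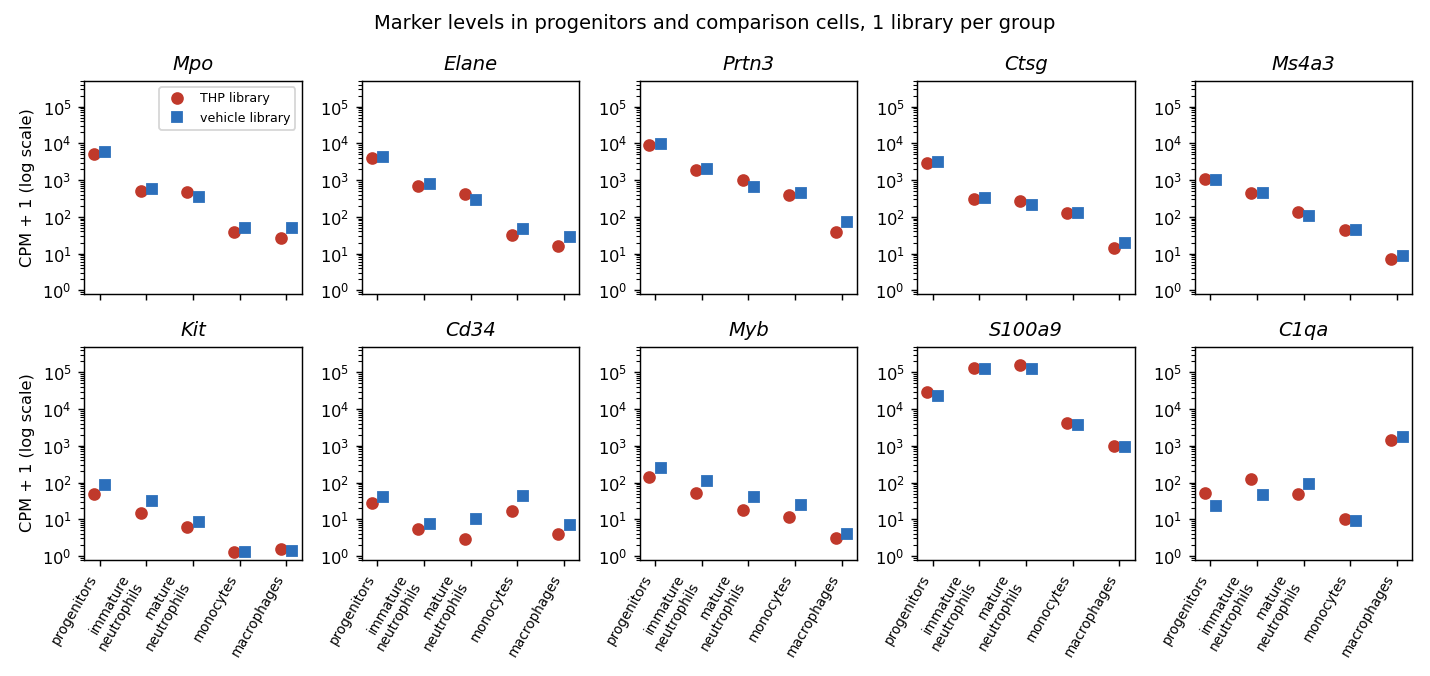
Level of 10 marker genes (CPM + 1, log axis) in progenitors and in 4 comparison groups of cells from the same cultures, 1 point per library (red circles THP, blue squares vehicle). Mpo, Elane, Prtn3 and Ctsg chose the progenitors. Ms4a3, Kit and Myb, which did not, are also highest there in both libraries. Cd34 is highest in progenitors with THP but in monocytes with vehicle (41.3 CPM, against 39.0 CPM in progenitors). S100a9 and C1qa are highest in neutrophils and macrophages.

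The cells lay late in the progenitor range. Flt3, a receptor of early multipotent progenitors, had 0.366 CPM with THP and 0.450 CPM with vehicle. Of 20 early progenitor genes 8 reached 10 CPM in at least 1 library. The alarmin gene S100a9 was already at 28636 CPM with THP and 22917 CPM with vehicle, whereas the secondary granule gene Ltf, limited by the rule, was at 7.32 and 8.30 CPM. Chil3, a chitinase-like gene of neutrophil precursors, was at 7093 and 6709 CPM.

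Cells with markers of other lineages lay inside the limits, and they are given because their share differed between the libraries. A C1qa, C1qb and C1qc sum of at least 5 per 10000 was present in 57 treated progenitors (4.55%) and 33 vehicle progenitors (2.11%). The same 3 genes summed to 147 CPM (interval 143 to 152) over treated progenitors and 67.3 (64.6 to 70.0) over vehicle progenitors, against 3682 and 3974 CPM in macrophages. Without those cells the sum was 28.8 and 18.9 CPM. Of 20 macrophage genes 15 reached 10 CPM, and the list summed to 3269 CPM with THP and 2236 CPM with vehicle. None of the 20 was at 0.

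The monocyte genes Vcan and F13a1 together reached 5 per 10000 in 120 treated (9.58%) and 261 vehicle progenitors (16.7%). F13a1, the clotting factor XIII A chain of classical monocytes, stood at 172 CPM with THP and 261 CPM with vehicle. The basophil protease genes Prss34 and Mcpt8 reached 5 per 10000 in 11 treated and 6 vehicle cells. Lymphoid markers summed to 26.3 CPM with THP and 25.9 CPM with vehicle over 18 genes.

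Position along the protease sum separated progenitors of different character in both libraries. From the range of 40 to 80 up to 320 or more, Ms4a3 went from 399 to 2023 CPM with THP and from 394 to 1657 CPM with vehicle. Kit went from 7.24 to 104 CPM with THP and from 8.86 to 167 CPM with vehicle, and Myb, a transcription factor of dividing progenitors, from 63.6 to 229 and from 112 to 398 CPM. Gfi1, the repressor that favours the neutrophil fate, went from 9.50 to 75.6 and from 9.42 to 88.8 CPM. Alas1, the first enzyme of heme synthesis, needed for the heme of myeloperoxidase, went from 214 to 1655 and from 192 to 1739 CPM. These genes were not part of the rule but were read in the cells sorted by it.

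Genes of the monocyte and macrophage side ran the other way. F13a1 went from 297 to 58.0 CPM with THP and from 493 to 96.6 CPM with vehicle. Csf1r, the M-CSF receptor, went from 161 to 55.0 and from 122 to 33.5 CPM, and Irf8, a factor of the monocyte fate, from 187 to 56.4 and from 210 to 64.7 CPM. The monocyte regulator Klf4 went from 34.4 to 1.60 CPM with THP and from 30.7 to 0.893 CPM with vehicle. Lyz2, a lysozyme gene of myeloid cells, went from 9515 to 1036 and from 7104 to 849 CPM. Among the comparison groups its level was highest in mature neutrophils (21575 and 20843 CPM), so it does not mark monocytes and macrophages alone. The 20 macrophage genes together went from 6250 to 731 CPM and from 4536 to 614 CPM. Within the gate the low end was therefore the end with more message of these other myeloid cells, and the share of progenitors in the lowest range was 16.8% with THP and 15.3% with vehicle. In the range of 80 to 160 the share was 24.9% (interval 22.5 to 27.4) and 18.4% (16.5 to 20.4). From 160 to 320 it was 33.7% and 38.4%, and at 320 or more 24.7% and 27.9%.

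**Figure D2:**
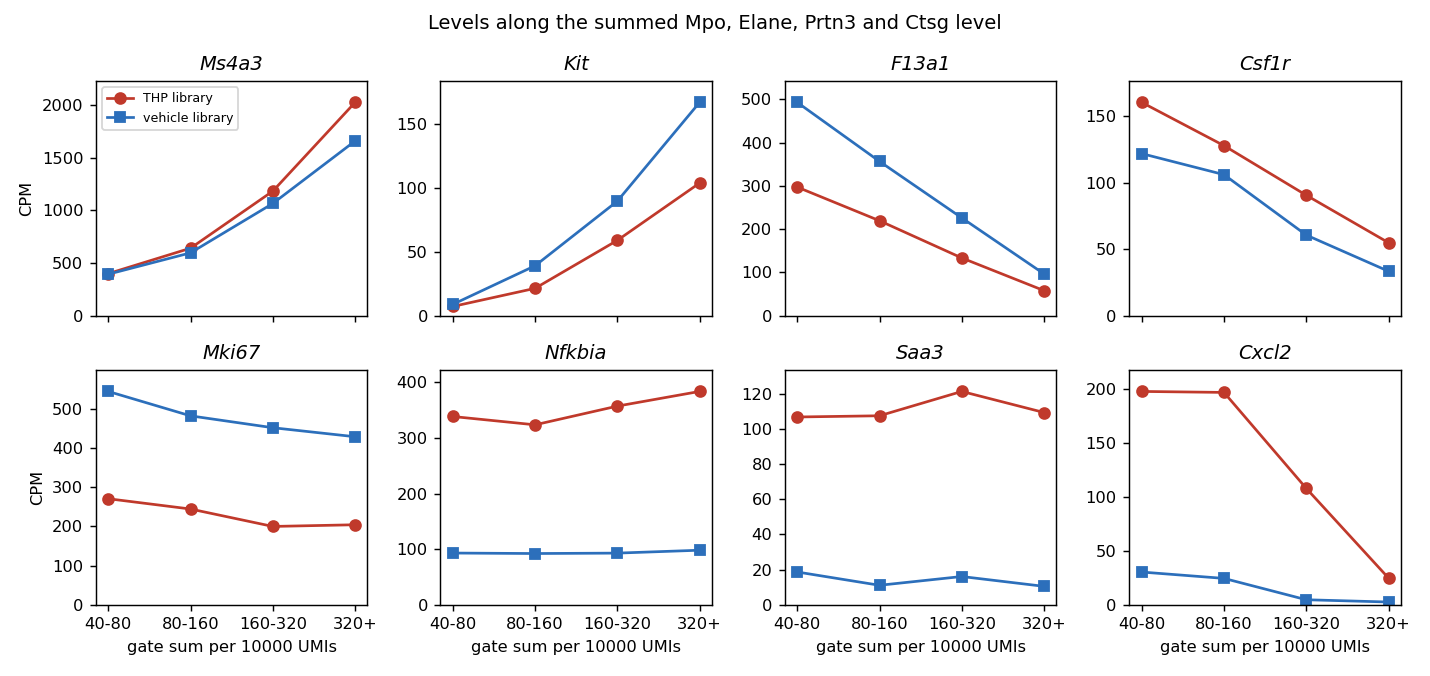
Level (CPM) of 8 genes in progenitors grouped by their summed Mpo, Elane, Prtn3 and Ctsg level per 10000 UMIs, in the THP library (red) and the vehicle library (blue). Ms4a3 and Kit climb and F13a1 and Csf1r decline with the sum in both libraries; Nfkbia and Saa3 are higher and Mki67 is lower with THP in all 4 ranges.

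Across all genes, the treated and vehicle progenitors were compared by the log2 ratio of CPM + 1, THP over vehicle, on summed UMIs. A gene was counted as higher or lower when it differed at least 2-fold on this scale, which understates differences of genes near 1 CPM, and reached 10 CPM in either library. A gene could thus enter through the library where it was high, so list counts below can be partly set by this limit. Of 7894 genes at 10 CPM, 87 (1.1%) were higher and 158 (2%) were lower with THP. The median ratio over all of them was -0.17, with the central 95% between -0.96 and 0.55, so values below are read against that shift. Scaling the libraries by TMM, which moves the median to 0.01, gave 114 higher and 57 lower genes, so that the share of higher genes among those past the limit went from 35.5% to 66.7% (71.6% with the RLE factors, with 116 higher and 46 lower). Both scalings raise the THP level and lower the vehicle level of every gene, so all 87 higher genes had to be counted again.

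**Figure D3:**
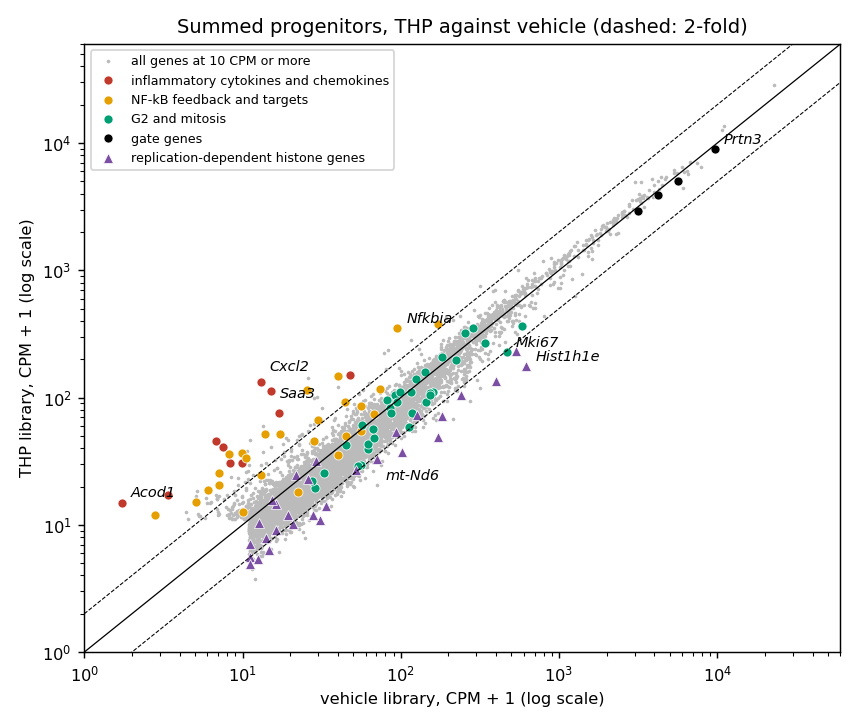
Summed level of each of 7894 genes (CPM + 1, both axes log) in vehicle progenitors (horizontal) and THP progenitors (vertical), 1 library each; the solid line marks equal levels and dashed lines 2-fold differences. All 10 inflammatory and 16 of 26 NF-kB genes lie above the upper dashed line, 15 of 29 histone genes and Mki67 below the lower one, and the 4 protease genes close to equality.

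The 4 protease genes are given as a description, since the same limit on their sum was set in both libraries. Mpo was at 4998 CPM with THP and 5677 CPM with vehicle, a log2 ratio of -0.18. Elane was at 3911 and 4226 CPM (ratio -0.11), Prtn3 at 8975 and 9615 CPM (-0.10), and Ctsg at 2946 and 3136 CPM (-0.09). Under TMM they were between -0.01 and 0.09, so no direction is given for them, and nothing is read from their closeness.

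Of 18 further azurophil granule and granule assembly genes 16 reached 10 CPM, with 0 higher (all genes, 1.1%), 0 lower (all genes, 2%) and a median of -0.09, and at those shares a list of this size can hold none. Ms4a3 had a ratio of 0.06. Prss57, a further serine protease of the granule, was at 163 and 182 CPM, Cst7, an inhibitor of the protease-activating cathepsin C, at 229 and 226 CPM, and Srgn, the proteoglycan that holds proteases in the granule, at 1293 and 1525 CPM. Serpinb1a, the cytosolic inhibitor of these proteases, was at 400 CPM with THP and 513 CPM with vehicle, a ratio of -0.36. At the upper end lay Ctsc, which encodes cathepsin C, at 204 and 150 CPM (0.44), Lyz2 at 4927 and 3294 CPM (0.58), and the haptoglobin gene Hp at 703 and 391 CPM (0.84). Hp passed 2-fold with the other scalings, at 1.02 under TMM and 1.04 with the RLE factors.

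Inflammatory genes formed the largest difference. Of 24 cytokine and chemokine genes 10 reached 10 CPM, and all 10 were at least 2-fold higher with THP, against 1.1% of all genes, with a median ratio of 2.40. The level limit could be met in either library, and Tnf, Il1b, Ccl4, Ccl7, Cxcl10 and Acod1 met it only with THP. Such genes entered through being high with THP, so the count and the median were partly set by the limit. Cxcl2, Saa3, Ccl2 and Ccl3 met it in both libraries. The list and its direction were known from earlier results on these data, so the count is a description. Together the 24 genes summed to 683 CPM with THP and 142 CPM with vehicle.

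Cxcl2, a neutrophil-attracting chemokine gene on chromosome 5 (90903871 to 90905938, + strand, GRCm38), was at 132 CPM (interval 128 to 137) with THP and 12 CPM (10.9 to 13.2) with vehicle, a ratio of 3.35. Saa3, an acute-phase gene on chromosome 7 (46711998 to 46715700, − strand), was at 112 CPM (108 to 117) and 14.0 CPM (12.8 to 15.3), a ratio of 2.91. Acod1, which makes the metabolite itaconate, had 342 UMIs with THP and 26 with vehicle, 13.9 and 0.732 CPM, a ratio of 3.105. The intervals of the libraries were far apart for each of these genes.

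Tnf, the gene of tumour necrosis factor, was at 40.1 CPM with THP and 6.5 CPM with vehicle (2.45), and Il1b, the interleukin 1 beta gene, at 16.3 and 2.39 CPM (2.35). Chemokines that attract monocytes were also higher: Ccl2 was at 150 and 47.0 CPM (1.65), Ccl3 at 74.2 and 15.9 CPM (2.15), Ccl4 at 44.8 and 5.77 CPM (2.76) and Ccl7 at 29.5 and 8.95 CPM (1.61). Cxcl10, a chemokine induced by interferons, was at 29.5 and 7.32 CPM (1.88). The Ccl genes are related in sequence, and the sources used here do not say how reads shared between them were counted. Within the list the ratios ran from 1.61 to 3.35, and Cxcl1 stayed below the level limit at 8.41 and 0.788 CPM.

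The NF-kB feedback and target list followed, with 26 of 28 genes at 10 CPM, 16 higher (all genes, 1.1%), 0 lower (all genes, 2%) and a median of 1.34. Of the higher genes, Nfkbie, Nfkbiz, Tnfaip3, Nfkb2, Relb, Bcl3, Traf1 and Bcl2a1b reached 10 CPM only with THP. The count and the median were thus partly set by that limit. Nfkbia, the inhibitor that holds NF-kB in the cytoplasm and is itself an NF-kB target, was at 350 CPM with THP and 94.1 CPM with vehicle, a ratio of 1.88. Other members of the inhibitor and subunit families were higher too: Nfkbie was at 24.8 and 6.08 CPM (1.86), Bcl3 at 19.5 and 6.08 CPM (1.53) and Nfkbiz at 14.1 and 4.11 CPM (1.57). The subunit gene Relb was at 34.8 and 7.21 CPM (2.12) and Nfkb2 at 35.8 and 8.95 CPM (1.89). The subunits Nfkb1, at 73.0 and 67.1 CPM (0.12), and Rel, at 34.5 and 39.4 CPM (-0.19), did not reach 2-fold. Subunits of 1 family thus differed in their ratios.

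Negative regulators and adaptors of the pathway included Tnfaip3, a ubiquitin-editing enzyme, at 17.7 CPM with THP and 5.01 CPM with vehicle (1.64). Tnip3, a partner of that enzyme, was at 148 and 39.1 CPM (1.89), and Traf1, an adaptor of tumour necrosis factor receptors, at 11 and 1.80 CPM (2.10). Effector genes included Sod2, the mitochondrial superoxide dismutase, at 380 and 172 CPM (1.14), the adhesion molecule gene Icam1 at 50.4 and 12.9 CPM (1.89) and the fatty acid receptor gene Gpr84 at 113 and 24.4 CPM (2.16). Bcl2a1b, an anti-apoptotic gene with near-identical copies, was at 32.7 and 9.49 CPM (1.68), and its value is uncertain for that reason. Birc2, an inhibitor of apoptosis, had the lowest ratio of the list, -0.30.

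**Figure D4:**
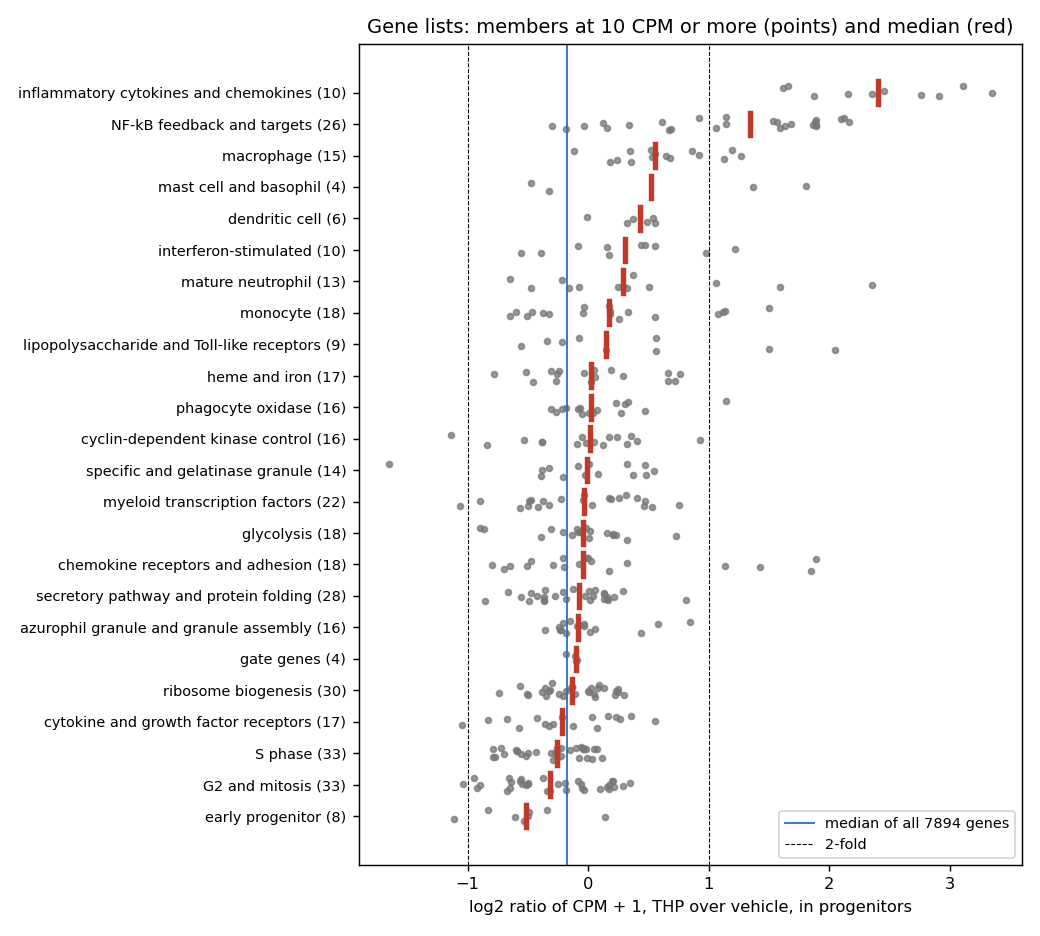
Log2 ratios (THP over vehicle, CPM + 1) of the members at 10 CPM or more of the gene lists with 3 or more such members, 1 grey point per gene, with the list median in red and the number of members in parentheses. The inflammatory list (median 2.40) and the NF-kB list (1.34) lie farthest to the right; the early progenitor list (-0.52) lies farthest to the left, and most other medians lie near the all-gene median in blue.

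Receptors that sense microbial and damage products differed among themselves. Tlr2, the receptor of bacterial lipoproteins, was at 45.3 CPM with THP and 10.2 CPM with vehicle (2.05), and Cd14, its co-receptor and that of Tlr4, at 234 and 82.4 CPM (1.5). Tlr4, the lipopolysaccharide receptor gene, was below the level limit at 5.57 and 9.37 CPM. Its partner Ly96 was at 10.9 and 7.04 CPM (0.56) and the adaptor Myd88 at 36.6 and 24.5 CPM (0.56). Of the 18 genes on that list 9 reached 10 CPM, 2 of them higher (all genes, 1.1%) and 0 lower (all genes, 2%), with a median of 0.15.

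Chemotactic receptors showed a similar split. Fpr2, a formyl peptide receptor gene, was at 17.5 CPM with THP and 4.14 CPM with vehicle (1.85), and C5ar1, the complement C5a receptor gene, at 39.7 and 14.2 CPM (1.42). The integrin gene Itga4, which anchors progenitors to marrow stroma, was at 95 and 166 CPM (-0.80, and -0.35 with the trend on transcript length, described below, removed). Ccr2, the monocyte egress receptor gene, was at 190 and 271 CPM (-0.51). Of 20 chemokine receptor and adhesion genes 18 reached 10 CPM, with 4 higher (all genes, 1.1%), 0 lower (all genes, 2%) and a median of -0.04. Of the higher genes, Fpr2 met the level limit only with THP.

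Receptors for growth factors were mostly close. Csf3r, the G-CSF receptor gene, was at 49.1 CPM with THP and 57.3 CPM with vehicle (-0.22), and Csf2rb, shared by the GM-CSF and interleukin 3 receptors, at 125 and 104 CPM (0.26). Il6ra, the interleukin 6 receptor gene, was at 22.3 and 47.3 CPM (-1.05), the only 1 of 17 measured members past 2-fold. Among all genes 1.1% were higher and 2% lower. Il6ra stood at -0.88 under TMM and at -0.64 with the length trend removed. Ifngr1, an interferon gamma receptor chain, was at 208 and 311 CPM (-0.58), and Csf1r at 107 and 72.4 CPM (0.55).

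Interferon-stimulated genes gave 10 of 29 members at 10 CPM, 1 higher (all genes, 1.1%) and 0 lower (all genes, 2%), with a median of 0.30. Irf7, the regulator that amplifies type I interferon responses, was at 15.1 and 5.91 CPM (1.22), and Isg15, a ubiquitin-like protein gene, at 24.8 and 12.1 CPM (0.98). Irf7, the 1 higher member, met the level limit only with THP, so the count was partly set by that limit. Under TMM 2 members were higher, with Isg15 at 1.15, and without the cells that carried C1q genes Isg15 stood at 0.78.

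Of the 8 early progenitor genes at 10 CPM, 7 had ratios below 0, as had 5298 of all 7894 genes, and 1 was lower by the 2-fold limit (all genes, 2%), with a median of -0.52. Kit was at 48.1 CPM (interval 45.4 to 51.0) with THP and 86.7 CPM (83.6 to 89.8) with vehicle, a ratio of -0.84. Cd34, the sialomucin of stem and progenitor cells, was at 27.3 and 39.0 CPM (-0.50), and Adgrl4, an adhesion G protein-coupled receptor, at 8.05 and 18.6 CPM (-1.11). Adgrl4, the 1 lower member, met the level limit only with vehicle. Sox4 was at 10.8 and 16.1 CPM (-0.54), Hoxa9 at 14.8 and 19.0 CPM (-0.34), and Lmo2, a scaffold of blood transcription complexes, at 183 and 167 CPM (0.13). Under TMM the list median was -0.33 and no member was 2-fold lower.

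The ratio of Kit was negative in each range of the protease sum, from -0.26 in the lowest to -0.84 in the range of 80 to 160. With both libraries weighted to the same mix of ranges it stood at -0.65. Kit in immature neutrophils had a ratio of -1.07, and the difference between the cell groups was not tested.

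Transcription factors of the myeloid lineage were distributed around the all-gene median, with 22 of 24 at 10 CPM, 0 higher (all genes, 1.1%), 1 lower (all genes, 2%) and a median of -0.04. Myb was at 137 CPM (interval 132 to 141) with THP and 255 CPM (250 to 260) with vehicle, a ratio of -0.90, and between -0.81 and -0.74 in all 4 ranges of the protease sum. Cebpa, which starts granulocyte differentiation, was at 64.6 and 90.3 CPM (-0.48), and Cebpe, the factor of secondary granule genes, at 94.4 and 119 CPM (-0.33). The ratio of Cebpe varied along the protease sum, at -0.53, -0.07, -0.46 and -0.005 from the lowest range to the highest. Runx1 was at 69.9 and 104 CPM (-0.56, and -0.29 with the length trend removed) and Gfi1 at 32.5 and 43.6 CPM (-0.41).

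Cebpb, the family member used in emergency granulopoiesis, was at 488 CPM (interval 480 to 497) with THP and 290 CPM (284 to 296) with vehicle, a ratio of 0.75, and it held between 0.73 and 0.75 in all 4 ranges of the protease sum. Cebpd was at 256 and 194 CPM (0.40), and Spi1, which encodes PU.1, at 443 and 370 CPM (0.26). Irf8, at 149 and 153 CPM, and Myc, at 77.2 and 79.5 CPM, had ratios of -0.04. Under TMM Cebpa stood at -0.30, Cebpe at -0.15, Cebpb at 0.92 and Cebpd at 0.58. Per3, a clock gene, was the 1 factor past 2-fold, at 4.88 and 11.3 CPM (-1.06), and it stood at -0.91 under TMM. It met the level limit only with vehicle.

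Cell cycle genes are read against all genes, of which 5298 of 7894 had ratios below 0. Of 33 S phase genes, all at 10 CPM, 29 had ratios below 0, with 0 higher (all genes, 1.1%), 0 lower (all genes, 2%) and a median of -0.26. Of 33 G2 and mitosis genes 24 had ratios below 0 and 1 was lower by 2-fold, with a median of -0.32. Under TMM the medians were -0.09 and -0.15, and 20 of 33 ratios were below 0 in each list.

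Mki67, which encodes the proliferation antigen Ki-67, was at 226 CPM with THP and 466 CPM with vehicle, a ratio of -1.04, and between -1.17 and -0.98 across the ranges of the protease sum. Its ratio was -1.10 in immature neutrophils, -1.24 in mature neutrophils, -1.11 in monocytes and -0.88 in macrophages. Top2a, the DNA topoisomerase of dividing cells, was at 364 and 581 CPM (-0.67), the mitotic kinesin gene Kif11 at 57.7 and 112 CPM (-0.94), and the replication helicase gene Mcm4 at 68.4 and 119 CPM (-0.79). Other genes of the same lists had ratios above 0: Cdk1, the mitotic kinase, was at 208 and 181 CPM (0.20), Ccnb1 at 94.5 and 81.2 CPM (0.22), and Ube2c, a ubiquitin-conjugating enzyme of mitotic exit, at 321 and 252 CPM (0.35). The lists were therefore not uniform in direction. Cdkn1b, an inhibitor of cell cycle entry, was at 17.6 and 40.1 CPM (-1.14, and -0.97 under TMM).

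The share of progenitors with a UMI of Mki67, Top2a, Cdk1, Ccnb1 or Ccnb2 was compared at 1 depth, with every cell thinned to 5000 UMIs and 19 treated and 15 vehicle cells below that left out. It was 89.1% with THP (interval 87.2 to 90.7) and 90.8% with vehicle (89.2 to 92.2), a difference of -1.71 points with an interval of -4.01 to 0.53, and 95.3% and 98.1% without thinning. Among cells with a protease sum of at least 80 the difference at this depth was -3.31 points (interval -5.95 to -0.747). The mean number of these UMIs per thinned cell was 4.60 and 6.56. Mki67 and Top2a had ratios of -1.04 and -0.67, whereas Cdk1, Ccnb1 and Ccnb2 stood at 0.20, 0.22 and 0.20. The pooled number therefore does not stand for each of these genes. At 2000 UMIs, where fewer cells reach the limit of 1 UMI, the shares were 70.2% and 79.8%. The difference was -9.6 points (interval -12.8 to -6.38). In mature neutrophils, a cell type that has left the cycle, they were 17.9% and 18.0%, with 148 treated and 343 vehicle cells too shallow and left out. The mean number of UMIs per cell was 0.337 and 0.497 there, beside 1.81 and 2.71 in progenitors. At 5000 UMIs the shares were 77.3% and 83.8% in monocytes, 75.7% and 78.4% in macrophages and 84.0% and 85.3% in immature neutrophils. Each was lower with THP. For Mcm5, Mcm6, Pcna, Tyms or Rrm2 the shares of progenitors at 5000 UMIs were 88.9% and 90.7%. No phase was assigned.

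Among the genes lower with THP, replication-dependent histone genes stood out by number. They were taken as a set after their values were seen, most of their messages carry no poly(A) tail, and near-identical copies make single values uncertain. Of 67 such genes 29 reached 10 CPM, of which 15 were lower (all genes, 2%) and 0 higher, with a median of -1.04, and the 67 summed to 1260 CPM with THP and 3019 CPM with vehicle. Hist1h1e, a linker histone gene, was at 175 and 619 CPM (-1.82), Hist1h3c at 47.7 and 171 CPM (-1.82) and Hist1h2ap at 133 and 399 CPM (-1.58). Hist1h1e was also lower in immature neutrophils (-1.82), monocytes (-1.92) and macrophages (-1.84) of the same libraries.

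The other genes with the lowest ratios were mt-Nd6, the complex I subunit on the light strand of the mitochondrial genome, at 19.4 and 69.5 CPM (-1.79), and AY036118 at 67.0 and 213 CPM (-1.65). Lyst, a regulator of lysosome and granule size, was at 92.9 and 274 CPM (-1.55), and Abca13, a large transporter gene of the neutrophil lineage, at 6.87 and 23.7 CPM (-1.65). B3gnt2, Adnp and Kif13b had ratios between -1.70 and -1.46. The 12 lowest named genes stayed past 2-fold under every alternative processing computed.

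Transcript length moved with the ratio. Over 7893 genes with a length the rank correlation between the longest annotated transcript and the log2 ratio was -0.60 across genes, which share the 2 libraries and are not independent. In 5 groups of rising length the median ratio was 0.11, -0.04, -0.22, -0.33 and -0.53. The group of longest transcripts, from 5252 bases, held 98 of the 158 lower genes and 3 of the 87 higher ones, and the group of shortest held 19 and 40. With the trend removed 82 genes were higher and 60 lower, 43 of the 60 among the 158. Mki67, with a longest transcript of 10061 bases, then stood at -0.59, Kit at -0.60 and Myb at -0.81, whereas Cxcl2 stood at 3.19. The part of length in these ratios was not tested.

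The inflammatory differences were set beside the macrophage content of the gate. The treated progenitors with a C1q sum of 5 or more, 4.55% of the cells, held 29.98% of the Cxcl2 UMIs, 26.6% of those of Tnf, 4.27% of those of Saa3 and 7.91% of those of Nfkbia. They held 34.05% of the Ccl2 UMIs, 45.4% of those of Ccl7 and 49.9% of those of Apoe, a lipid carrier gene of macrophages. Their share of all progenitor UMIs is not given here, and UMIs per cell vary, so these shares are not read against 4.55%. Without these cells the treated level went from 132 to 101 CPM for Cxcl2 and from 40.1 to 32.1 CPM for Tnf. For Saa3 it was 112 CPM with them and 117 CPM without, and for Nfkbia 350 and 351 CPM. After leaving out these cells in both libraries, the ratio was 3.18 for Cxcl2, 2.95 for Saa3, 2.22 for Tnf, 1.73 for Il1b and 1.89 for Nfkbia. Of the 87 higher genes 67 were still higher without those cells, among 68 in all. The part of macrophage RNA in the remaining cells was not tested.

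Along the protease sum the inflammatory genes differed in their pattern of level. Nfkbia lay between 324 and 384 CPM with THP and between 92.2 and 98.2 CPM with vehicle in all 4 ranges, with a ratio of 1.80 or more in each. Saa3 was likewise level, between 107 and 121 CPM with THP and between 10.5 and 18.7 CPM with vehicle. Cxcl2 was at 197, 196, 108 and 24.7 CPM with THP from the lowest range to the highest, and at 30.3, 24.4, 4.67 and 2.57 CPM with vehicle. Tnf went from 70.8 to 11.6 CPM with THP and from 10.3 to 3.12 CPM with vehicle, and Acod1 from 27.1 to 1.60 CPM with THP, the last resting on 8 UMIs. Cxcl2, Tnf and Acod1 thus had their lowest levels where protease message was highest, in the same ranges in which the macrophage list was lowest, and the part of those cells in the levels was not tested.

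Other genes with high ratios had the pattern of Cxcl2. Marcksl1, a cytoskeletal regulator gene, was at 140 CPM with THP and 25 CPM with vehicle (2.44) and went from 247 to 34.7 CPM with THP along the sum. Sdc4, a heparan sulfate proteoglycan gene, was at 59.0 and 12.5 CPM (2.15), and Pf4, a platelet and macrophage chemokine gene, at 223 and 77.5 CPM (1.51). Clec4e and Clec4d, C-type lectin receptors of activated myeloid cells, were at 120 and 39.2 CPM (1.59) and at 168 and 80.01 CPM (1.06). Cd14 went from 387 to 61.0 CPM with THP and from 152 to 27.1 CPM with vehicle, with ratios between 1.14 and 1.44.

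Some higher genes belong to the macrophage and monocyte lists. Of 15 macrophage genes at 10 CPM 14 had ratios above 0 and 3 were higher by 2-fold (all genes, 1.1%), with a median of 0.56. C1qa was at 49.9 and 22.4 CPM (1.12) and Apoe at 42.6 and 17.1 CPM (1.27). Without the C1q cells C1qa stood at 0.45 and Apoe at 1.61. Of 18 monocyte genes 4 were higher (all genes, 1.1%): Cd14, Cx3cr1 at 49.1 and 21.8 CPM (1.14), S100a4 at 419 and 193 CPM (1.11) and the Fc receptor gene Fcgr1 at 21.8 and 9.82 CPM (1.07). Fcgr1 met the level limit only with THP. F13a1 (-0.60), Ccr2 and Vcan, at 8.98 and 12.8 CPM (-0.47), were on the other side, so the monocyte list had no common direction.

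The same comparison in other cells of the cultures, which come from the same 2 libraries and so share any difference between them, is given beside that in progenitors. For the inflammatory list the median was 2.35 in immature neutrophils, 2.26 in mature neutrophils, 2.44 in monocytes and 2.51 in macrophages, beside 2.40 in progenitors. For the NF-kB list it was 1.35, 1.01, 1.34 and 1.21, beside 1.34. Of the 87 genes higher in progenitors 67 (77% of them, and 52.8% of 127) were also higher in immature neutrophils, 49 (56.3%, and 37.1% of 132) in mature neutrophils, 48 (55.2%, and 55.8% of 86) in monocytes and 44 (50.6%, and 50% of 88) in macrophages. The corresponding share of all genes higher was 1.68% in immature neutrophils, 1.84% in mature neutrophils, 1.1% in monocytes and 1.09% in macrophages.

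Single genes differed in size between the groups, none of these differences being tested. Cxcl2 had a ratio of 3.35 in progenitors and of 2.35 in immature neutrophils, 2.27 in monocytes and 2.31 in macrophages, and of 4.19 in mature neutrophils. Its level in treated progenitors, 132 CPM, was below the 642 CPM of treated macrophages, and its vehicle level, 12 CPM, was below the 129 CPM there. Il1b had a ratio of 2.35 in progenitors and 4.06 in macrophages, and Sod2 of 1.14 in progenitors and 2.57 in immature neutrophils. Saa3 had a narrow range of levels over treated cells, in progenitors (112 CPM), immature neutrophils (147 CPM), monocytes (107 CPM) and macrophages (143 CPM).

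**Figure D5:**
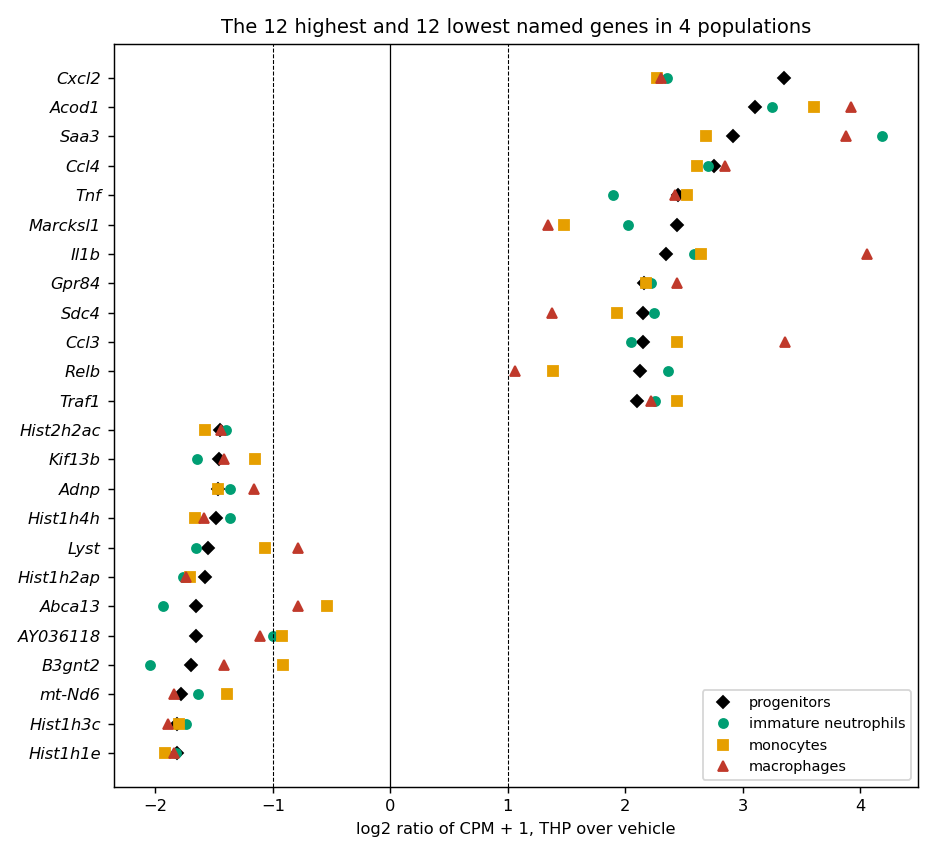
Log2 ratio (THP over vehicle, CPM + 1) of the 12 highest and 12 lowest named genes of the progenitors (black diamonds), beside the ratios in immature neutrophils, monocytes and macrophages of the same 2 libraries; dashed lines mark 2-fold. All 24 genes have the same sign in the 4 groups; among these groups Cxcl2 has its highest ratio in progenitors, and Il1b and Ccl3 have theirs in macrophages.

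Prss34 and Mcpt8 rested on a handful of cells. Prss34 was at 97.9 CPM with THP and 27.3 CPM with vehicle (1.81), and Mcpt8 at 81.4 and 30.9 CPM (1.37). Without the 11 treated and 6 vehicle cells in which the sum of both reached 5 per 10000, the ratio of Prss34 was 0.38 and that of Mcpt8 -0.03.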

How the data were processed

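Single-cell RNA was measured in 1 THP library and 1 vehicle library. The deposited values are raw UMI counts per gene and barcode, per the file headers (software version 3.1.0). The submitters' processing notes name Cell Ranger, STAR, bcl2fastq and the build mm10, with annotation release and strand setting not given in the sources used here. Coordinates and lengths come from GENCODE M21 (GRCm38), and promoter windows from RefSeq (GRCm38.p6), matched by symbol for 6306 of the 7894 expressed genes. The members and gene lists were chosen with earlier results of these data known.

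UMI counts were summed over progenitors per library and scaled to CPM with python 3.11.15, numpy 2.4.6 and scipy 1.17.1. Intervals are exact (Poisson for CPM, Clopper-Pearson for shares, Newcombe for differences of shares) at 95%; they cover counting error only. With 1 library per group no p-value was computed. The 2-fold rule was tested on simulated counts, and the thinning on measured counts of vehicle progenitors. Immature neutrophils had at least 50 of Camp, Ngp and Ltf per 10000 and Retnlg under 10, and mature neutrophils Retnlg of at least 10. Macrophages had C1q genes of at least 20; monocytes had C1q under 5 and Vcan plus F13a1 of at least 5. Named genes were the markers, the 12 highest and 12 lowest ratios past 2-fold that kept their direction with cells weighted equally and on both sides of a protease sum of 100, up to 5 members of each of 28 lists with the largest ratio, and all early progenitor and transcription factor genes at 10 CPM. Further list members were named after their values were seen. TMM and RLE factors came from edgeR 4.0.16.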

Additional observations from a re-analysis of the deposited data

Results flagged for a closer look

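Mcpt8 had a log2 ratio of -5.63 in mature neutrophils, defined by Retnlg, and of 1.37 in progenitors of the same libraries, so that its direction was opposite in the cell groups. Prss34 had a ratio of -5.79 in mature neutrophils and of 1.81 in progenitors. Neither difference was tested, and both genes rested on 11 treated and 6 vehicle progenitors. In mature neutrophils the ratios rested on 2 treated and 325 vehicle UMIs for Mcpt8, and on 4 and 505 for Prss34. The number of cells that held those UMIs is not given here, so no response of neutrophils is read from them.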

How the results depend on the processing

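Against 87 genes higher and 158 lower with THP, the count of lower genes was 57 under TMM, 46 under RLE, 57 with all ratios centred on their median (chosen after seeing the data), 60 with the length trend removed, 59 with a pseudocount of 5 and 239 with cells thinned to 5000 UMIs. With at least 50 CPM 31 were higher and 55 lower, and at 1.5-fold 182 and 1262. Fewer genes were tested at 50 CPM; otherwise the cause was not tested. The count of higher genes was 68 without the C1q cells and 62 with the same mix of protease sums. The share difference was -6.20 points without neutrophils in the denominator (chosen after seeing the data), and the difference in cells with a mitotic UMI was -9.6 points at 2000 UMIs per cell. Mcpt8 changed sign to -0.0298 without the Prss34 and Mcpt8 cells and to -0.0048 without these and the C1q cells, both chosen after seeing the data. Of the named gene values under alternatives 1895 moved by less than their counting interval, 785 by more, and 2, both of Mcpt8, changed sign after passing 2-fold. No paired analysis was possible because each group has 1 library, and for the same reason none could be left out. Counting error is small at this depth; variation between cultures is unknown.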

Other observations

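Metabolic and biosynthetic lists of the progenitors stayed near the all-gene median. Ribosome biogenesis, with all 30 genes at 10 CPM, had a median of -0.14 and none past 2-fold, against 1.1% higher and 2% lower among all genes. Npm1, the nucleophosmin gene, was at 2038 CPM with THP and 2025 CPM with vehicle (0.01), and Ncl, the nucleolin gene, at 853 and 1210 CPM (-0.50, and -0.11 with the length trend removed). The secretory pathway and protein folding list, 28 genes, had a median of -0.08 and none past 2-fold; Pdia3, a disulfide isomerase of the endoplasmic reticulum, was at 436 and 612 CPM (-0.49) and the chaperone Canx at 229 and 364 CPM (-0.66). Glycolysis had a median of -0.04, with Slc2a1, the glucose transporter, at 30.5 and 18.1 CPM (0.72) and Hk1, the first enzyme of glucose use, at 50.7 and 95.6 CPM (-0.90).

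Iron handling genes differed among themselves. Fth1, the ferritin heavy chain that stores iron, was at 4960 CPM with THP and 3018 CPM with vehicle (0.72), and Hmox1, which degrades heme, at 33.7 and 20.9 CPM (0.66). Tfrc, the transferrin receptor that imports iron, was at 200 and 274 CPM (-0.46), Slc11a2, a further iron importer, at 14.6 and 8.22 CPM (0.76), and Slc40a1, the iron exporter, at 17.8 and 31.3 CPM (-0.79). Of 17 members at 10 CPM none passed 2-fold (all genes, 1.1% higher and 2% lower), and the median was 0.02. Fth1 had ratios of 0.91 in immature neutrophils and 0.20 in macrophages; the difference was not tested.

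Of 16 genes at 10 CPM on the phagocyte oxidase list, drawn up for the respiratory burst, 1 was higher (all genes, 1.1%) and 0 lower (all genes, 2%). The higher gene was Sod2, the mitochondrial superoxide dismutase, which is not a subunit of the oxidase. Cybb, the catalytic subunit, was at 430 CPM with THP and 310 CPM with vehicle (0.47) and Ncf4, a cytosolic subunit, at 411 and 326 CPM (0.33).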
